A study of Mus musculus with 2 samples.

Results

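Gsc-high cells were the cells of day 2.5 mouse gastruloids with at least 2 Gsc UMIs (unique molecular identifiers, each standing for 1 counted transcript) and at least 1 Eomes UMI. They were found among barcodes with at least 2500 UMIs, at least 1000 genes and at most 10% mitochondrial UMIs. In all, 511 of 19294 kept cells met the rule. Of these, 129 came from the library whose label says wild type, below the WT-labelled library, and 382 from the one whose label says Sp5/8 double mutant, below the DM-labelled library. The cells were therefore chosen by measured values of Gsc and Eomes, and each value of those genes is a description of the choice.

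Gsc (Goosecoid) encodes a homeodomain repressor that marks the anterior primitive streak and later the prechordal plate. Eomes encodes a T-box factor that the epiblast needs, downstream of Nodal signalling, to make mesoderm and definitive endoderm. Cells of the anterior streak that carry both are commonly called mesendoderm, since they can still give rise to axial mesoderm and to endoderm. Nodal, its co-receptor and its inhibitors set how far this fate goes, while Wnt signalling induces the streak and its genes T and Mixl1. In mm10 Gsc lies on the minus strand of chromosome 12, from 104471209 to 104473330, and Eomes on chromosome 9, plus strand, from 118478212 to 118486132 (gene bodies, GENCODE vM21).

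Gastruloids are aggregates of embryonic stem (ES) cells that are grown in suspension and form streak-like cells after a pulse of Wnt activation. Here both groups started from about 300 ES cells per aggregate in serum-free N2B27 medium, received 3 µM CHIR, an activator of Wnt signalling, at day 2, and were collected 12 h later, at day 2.5. The wild type group was the R1 line, and the other group carried a double knockout of Sp5 and Sp8, which encode GC-box binding factors induced by Wnt signalling, and is given as R1 too. Aggregates were pooled, and 1 library was made per genotype with the 10x single-cell 3′ chemistry, so nothing below has a replicate check and no test between genotypes was possible.

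The kept cells numbered 8707 in the WT-labelled library and 10587 in the other, with a median of 10571 and 8637 UMIs per cell. The labels state 9238 and 11190 captured cells with medians of 5333 and 5398 genes, and the kept cells had medians of 3275 and 2884 genes. Only 27 kept barcodes occurred in both libraries. The targeted genes went against the labels. Over all kept cells Sp5 stood at 109 CPM (a gene's UMIs scaled to a fixed total per set of cells) in the WT-labelled library and at 479 CPM in the DM-labelled library. Among members the levels were 142 CPM (126 to 161) and 611 CPM (588 to 635). Sp8 was likewise higher in the DM-labelled library, with 40.1 against 20.8 CPM over all kept cells. In members it stood at 37.4 (31.9 to 43.5) against 9.27 CPM (5.40 to 14.8). The latter rested on 17 UMIs in 14 members of the WT-labelled library, where Eomes cells without Gsc had 20.7 CPM. The altered part of each gene is not given in the labels, so transcript counts at the 3′ end do not check the alleles, and no direction between the libraries below is read as an effect of losing Sp5 and Sp8. All intervals are 95% and cover counting error only, neither the variation among cells nor that among cultures.

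Gsc-high cells made up 1.48% of kept cells (1.24 to 1.76, exact binomial) in the WT-labelled library and 3.61% (3.26 to 3.98) in the DM-labelled library. Eomes itself was seen in 3780 and 6547 cells, so a larger Eomes population accompanied the larger number of members. Within the Eomes cells the members were 3.41% (2.86 to 4.04) and 5.83% (5.28 to 6.43). Members of the DM-labelled library were thus more frequent by either denominator, although its cells were shallower.

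Most members sat at the threshold. Of the 129 members in the WT-labelled library, 108 had exactly 2 Gsc UMIs and 21 had 3 or more. In the DM-labelled library 287 had exactly 2 and 95 had 3 or more. The highest count was 5 in both. Just outside the rule lay 472 and 1092 Eomes cells with a single Gsc UMI, and 26 and 44 cells with 2 or more Gsc UMIs but no Eomes UMI. Summed over the members, Gsc stood at 156 and 198 CPM, against 10.5 and 23.9 CPM over all kept cells.

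**Figure D1:**
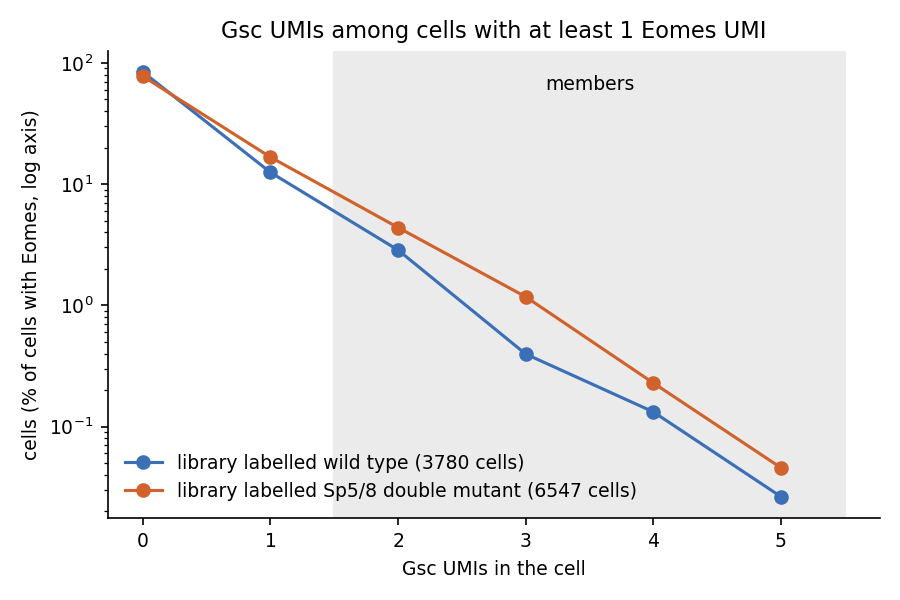
Share of cells with Eomes (log axis, percent) that held each number of Gsc UMIs, in the WT-labelled library (3780 cells, blue) and the DM-labelled library (6547 cells, orange), with the range of the members shaded. Both curves decline without a gap between members and other cells, and from 1 Gsc UMI on the orange points lie above the blue ones.

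A UMI of Gsc can also come from free RNA in the droplet, so cells not known to express the gene were counted in the same way. Among cells with at least 2 UMIs of Sox1, an early neural gene, 0 of 98 and 0 of 44 had 2 Gsc UMIs, which allows shares of up to 3.06% and 6.82%. At least 1 Gsc UMI was seen in 3 of the 98 and 2 of the 44, at median depths of 10182 and 8268 UMIs per cell. Among cells with 2 or more UMIs of Zfp42, a naive pluripotency gene, and no T UMI, 3 of 170 (1.76%) and 2 of 121 (1.65%) had 2 or more Gsc UMIs. These Zfp42 cells were not free of Eomes, at 61.6 and 113 CPM, so members could be among them. Over all kept cells 1.78% and 4.02% had 2 or more Gsc UMIs. Cells without Eomes had 2 or more in 0.528% and 1.09%. Those cells were shallower than cells with Eomes, with medians of 9786 and 7839 UMIs against 11546 and 9179. The background intervals were wide, 0.37% to 5.07% and 0.20% to 5.84% in the Zfp42 cells, and the part of free RNA in the members was not tested.

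The 2-UMI rule favours deep cells. Members had medians of 13027 and 10518 UMIs per cell, and the comparison cells, which had Eomes but no Gsc UMI (3179 and 5073 cells), had 11342 and 9057. Mitochondrial shares were close, with medians of 3.68% and 3.97% in members and 3.77% and 4.07% in comparison cells. After each cell was thinned to 2500 UMIs, at least 1 Gsc UMI remained in 2.21% (1.91 to 2.54) of kept cells in the WT-labelled library and 5.63% (5.20 to 6.09) in the other. Too few UMIs remained for the rule itself, which then held in 1 and 23 cells. High doublet scores (the score counts simulated doublets among a cell's neighbours) occurred in 9 members (6.98%) and 52 members (13.6%, 10.3 to 17.5), against 9.15% and 10.0% of comparison cells. Their part in the results was not tested beyond leaving those cells out, after which all 15 genes given below as higher in members and 9 of the 10 lower genes, all but Id2, kept their place. Of the 85 and 121 genes given below as differing between members of the libraries, 62 and 86 did.

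Streak markers were more frequent in members. Several genes that define later endoderm were rare in members and, in the WT-labelled library, in comparison cells too. Mixl1, a homeobox gene of the streak, was seen in 48 of 129 members (37.2%) and 135 of 382 (35.3%), against 11.9% and 12.0% of comparison cells. T, the Brachyury gene of streak and mesoderm, was seen in 55.0% and 55.2% of members, against 36.0% and 33.7%. Foxa2, a pioneer factor of anterior streak, node and endoderm, was seen in 12 members (9.30%) and 69 members (18.1%), against 2.14% and 3.61%. These markers were therefore more frequent in members, yet many members lacked all of them.

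At equal depth the order was the same. Thinned to 2500 UMIs, Mixl1 was seen in 11.6% and 9.95% of members against 3.62% and 3.65% of comparison cells, and Foxa2 in 2.33% and 7.07% against 0.503% and 1.18%. For Foxa2 in the WT-labelled library this rested on 3 of 129 members. Their interval (0.482% to 6.65%) overlaps that of comparison cells (0.288% to 0.816%). In Sox1 cells, which serve as background, Mixl1 was in 0 of 98 and 0 of 44 and Foxa2 in 2 of 98 and 0 of 44 without thinning. Both T and Foxa2 were seen in 8 members (6.20%) and 46 members (12.0%). None of T, Mixl1 and Foxa2 was seen in 40 members (31.0%) and 118 members (30.9%), against 57.9% and 59.4% of comparison cells. Without thinning, then, nearly the same share of members in each library lacked all 3 markers.

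Genes that mark later endoderm, node and organizer were unevenly present. Cer1, a secreted inhibitor of Nodal, BMP and Wnt made by anterior endoderm, was at 0 in both sets of members, as were Shh and Noto, genes of node and notochord. A count of 0 of 129 allows up to 2.33% of cells with a UMI, and 0 of 382 up to 0.785%, which does not limit cells that express a gene at a level too low to be counted. Sox17, which defines endoderm, was seen in 0 members and in 1 member. Gata4 was seen in 0 and 6 members and Gata6, its relative, in 3 and 0. The 3 members with Gata6 held 22, 17 and 0 UMIs of the mesoderm gene Mesp1, described below. They held 9, 15 and 13 UMIs of Lhx1 and none of Foxa2. In comparison cells of the WT-labelled library Cer1, Shh and Noto were also at 0. Sox17, Gata4 and Gata6 were seen in 0.598%, 1.10% and 0.535% of those cells. In the DM-labelled library 2 of 5073 comparison cells had a Cer1 UMI. Chrd, which encodes the BMP antagonist chordin of the organizer, was seen in 7 members (5.43%) and 38 members (9.95%), against 4.47% and 5.17% of comparison cells, with ratios of 0.08 and 0.73 (0.20 to 1.19). Hhex, a homeobox gene of anterior endoderm, was seen in 7.75% and 5.24% of members against 7.42% and 5.38% of comparison cells. Frzb, a secreted Wnt inhibitor, was seen in 7 and 14 members, with ratios of 1.18 (0.26 to 1.91) and 0.19. In the WT-labelled library the 3 members with Gata6 held 6, 1 and 3 of the Frzb UMIs, so its ratio there rested largely on few cells. Fst, which encodes the activin inhibitor follistatin and was abundant in these cells generally, was seen in 93.8% and 96.6% of members against 89.1% and 87.6%. Of the extraembryonic endoderm markers Afp and Ttr were at 0 in all members, and Amn, Apoa1 and Sox7 were seen in 4, 1 and 1 members and in 5, 1 and 0. In comparison cells of the WT-labelled library Afp was at 0 too, and Ttr was seen in 0.0944%.

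**Figure D2:**
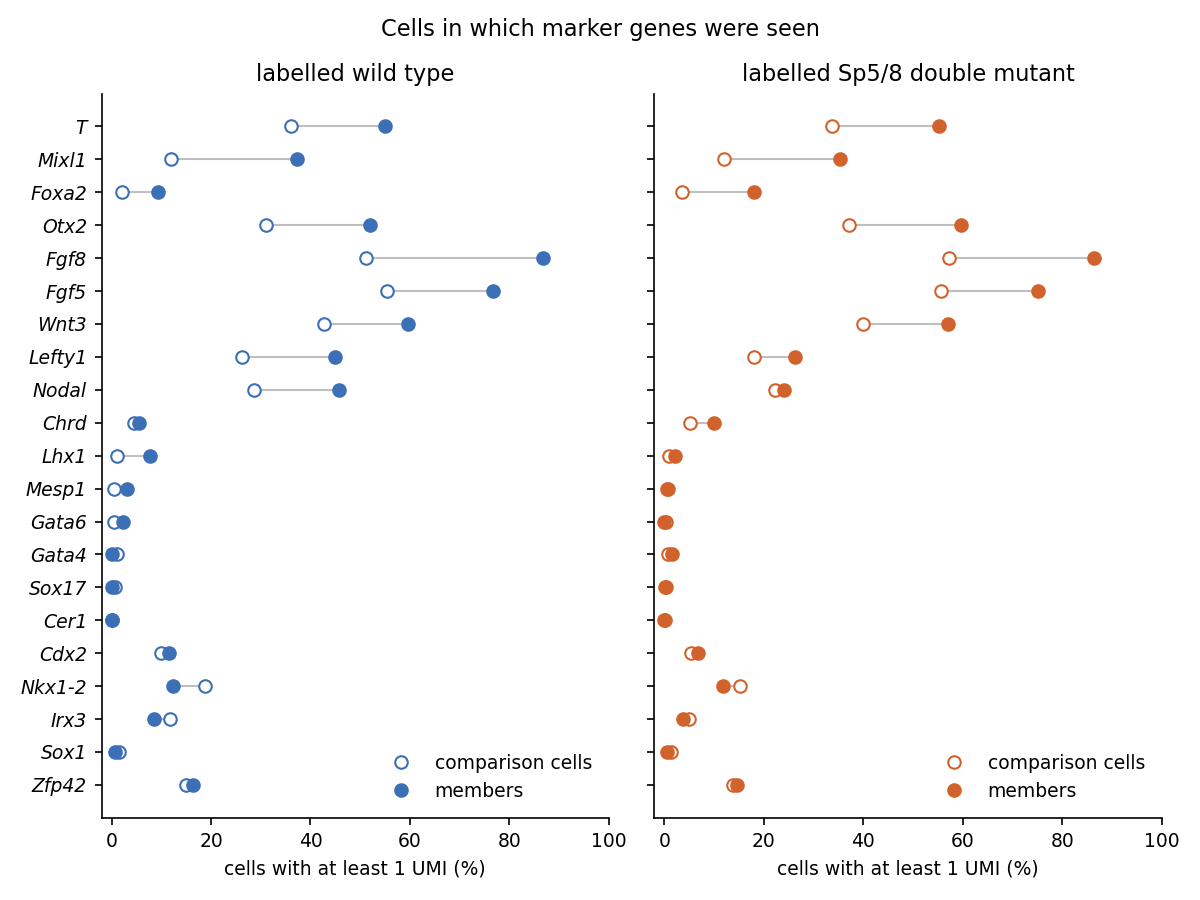
Percent of cells with at least 1 UMI of each marker gene, in members (filled circles) and in comparison cells with Eomes but no Gsc (open circles), for the WT-labelled library (left) and the DM-labelled library (right). T, Mixl1, Foxa2, Otx2, Fgf8, Fgf5 and Wnt3 were more frequent in members of both libraries, while Sox17 and Cer1 stayed at 0 or in a single member.

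To describe what else set members apart, UMIs were summed over members and over comparison cells in each library and their CPM compared, for 7608 genes with a mean of at least 10 CPM over the 4 sums. A gene is given as higher or lower when the ratio was at least 1.5-fold with its counting interval on 1 side of 0 in both libraries. Since Gsc and Eomes chose the cells, these ratios are a description and carry no test. By this measure 15 genes (0.197% of those measured) were higher in members and 10 (0.131%) were lower. The median log2 ratio over all measured genes was 0.00 and 0.01 in the 2 libraries, and few genes differed by 1.5-fold. Taken alone, the libraries gave 80 higher and 93 lower genes in the WT-labelled library, whose members held 1834352 UMIs in all, and 24 and 21 in the DM-labelled library, whose members held 4440015. The counts depend on the rule: with cells of 1 Gsc UMI added to the members they were 4 and 3, and in cells thinned to 2500 UMIs 5 of the 15 and 2 of the 10 kept their place. Among the 5 were Mixl1 and Fgf8. Foxa2 was not, although its thinned ratios were 2.22 and 2.92.

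Among the 15 were transcription factors of the streak and of anterior tissue. Foxa2 stood at 13.1 CPM in members and 2.64 CPM in comparison cells of the WT-labelled library (log2 ratio 2.33, 1.60 to 2.96), and at 36.9 and 5.89 CPM in the DM-labelled library (2.65, 2.37 to 2.93). Mixl1 stood at 71.4 and 15.1 CPM in the former (2.25, 1.96 to 2.52) and at 63.7 and 16.9 CPM in the latter (1.92, 1.72 to 2.11). Foxa2 and Mixl1 had the highest ratios of the 15 in both libraries.

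Otx2, a homeobox gene of anterior epiblast and head mesendoderm, reached 76.3 against 40.2 CPM (0.93) and 99.8 against 60.3 CPM (0.73). T reached 79.6 against 51.2 CPM (0.64, 0.38 to 0.88) and 89.0 against 55.7 CPM (0.68, 0.52 to 0.83). Hmga2, a chromatin protein, was just past the threshold with 0.59 and 0.69.

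Genes of the Nodal pathway were among the 15. Tdgf1, which encodes the Nodal co-receptor Cripto, stood at 87.2 against 36.2 CPM in the WT-labelled library (1.27), and in the DM-labelled library its ratio was 0.68 (0.50 to 0.84). Lefty1, a secreted Nodal inhibitor, stood at 131 against 50.6 CPM (1.37, 1.17 to 1.56) and at 60.4 against 39.3 CPM (0.62, 0.43 to 0.80). Its paralog Lefty2 had ratios of 0.92 and 0.64. The Lefty genes are close in sequence, so reads could be split between them. The co-receptor and both inhibitors were thus higher in members of each library.

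Nodal itself was not among the 15. It stood at 43.1 against 30.7 CPM in the WT-labelled library (0.50, 0.14 to 0.82) and at 24.5 against 28.2 CPM in the DM-labelled library (-0.19, -0.49 to 0.08). Of 11 measured Nodal pathway genes, 4 were higher and none lower, with medians of 0.48 and 0.13. The signal transducer Smad4 (-0.06 and 0.04) and the receptor Acvr2b (-0.06 and 0.13) were close to 0 in both libraries. The lists were drawn up with earlier results of these data known, so their counts are not independent evidence.

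Among signalling and cell surface genes, Fgf8, the growth factor that streak cells need to migrate, was the most abundant of the 15. It stood at 251 against 118 CPM (1.09, 0.95 to 1.23) and at 309 against 159 CPM (0.96, 0.87 to 1.04), and was seen in 112 of 129 members and 330 of 382. Fgf5, an epiblast growth factor, was past the threshold in 1 library only, with 135 against 81.5 CPM (0.73) and 147 against 99.2 CPM (0.57, 0.45 to 0.68). Of 12 measured FGF genes, Fgf8 was higher and Dusp4, a phosphatase that dampens the kinases below FGF receptors, was lower. The feedback genes Spry2, Etv4, Etv5 and Dusp6 lay between -0.17 and 0.27 in both libraries.

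Adamts9, a secreted protease that acts on the matrix, stood at 24.5 against 9.75 CPM (1.35, 0.85 to 1.78) and at 43.5 against 15.3 CPM (1.51, 1.27 to 1.74). Pmepa1, which encodes a membrane inhibitor of TGF-β and Nodal type signalling, had nearly equal ratios, 0.97 (0.69 to 1.23) and 0.98 (0.80 to 1.15). Pcdh8, the protocadherin of streak and paraxial mesoderm, had ratios of 0.74 and 0.80. Epha2, an ephrin receptor of the streak, had 0.70 and 0.65, and the mesenchymal cadherin Cdh11 had 0.80 and 0.62.

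Other adhesion genes differed little. Cdh1, the epithelial cadherin, stood at 206 against 214 CPM (-0.06, -0.21 to 0.09) and at 173 against 181 CPM (-0.07, -0.18 to 0.04). Cdh2, the mesenchymal cadherin, had -0.17 and 0.16, and Vim, a mesenchymal filament protein, 0.15 and 0.03. Of 19 measured genes of the transition, Adamts9 and Cdh11 were higher and none was lower. Snai1, the repressor that switches Cdh1 off, was too low to be among the measured genes and was seen in 16 and 22 members.

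Wnt pathway genes differed by less than the limit. None of 19 measured genes was higher or lower by 1.5-fold in both libraries, with medians of 0.14 and 0.09, but 11 of the 19 had a positive ratio in both, against 2276 of all 7608 genes. Their summed level was 927 CPM (883 to 972) against 883 CPM in the WT-labelled library and 1421 CPM (1386 to 1456) against 1247 CPM in the DM-labelled library. Sp5, itself induced by Wnt signalling, stood at 142 against 118 CPM and at 611 against 481 CPM. Sp8 stood at 9.27 against 20.7 CPM and at 37.4 against 39.9 CPM. The part of Sp5 and Sp8 in these sums was not tested. Wnt3, the ligand that induces the streak, stood at 68.1 against 51.4 CPM (0.41, 0.14 to 0.67) and at 79.3 against 59.2 CPM (0.42, 0.26 to 0.58), under the 1.5-fold limit in both. Axin2, a direct target of the pathway, had 0.18 and 0.16. Dkk1, a Wnt inhibitor of the prechordal region, had 1.33 (0.71 to 1.85) in the WT-labelled library and 0.50 (0.01 to 0.93) in the other. In the former 1 cell held 9 of its 30 UMIs, and without that cell the ratio was 0.82.

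**Figure D3:**
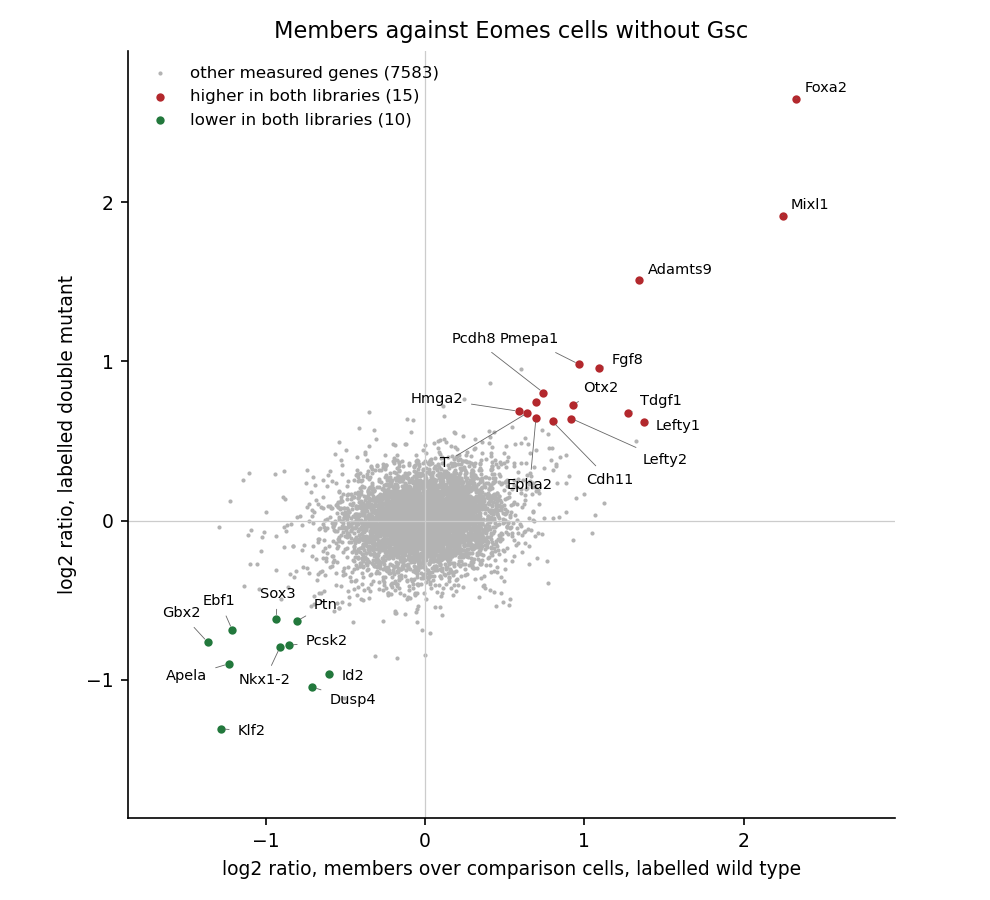
Log2 ratio of summed CPM in members over comparison cells for 7608 genes, in the WT-labelled library (horizontal axis) and the DM-labelled library (vertical axis), with the 15 genes higher (red) and 10 genes lower (green) in both libraries, most of them named. Foxa2 and Mixl1 lie farthest from the grey mass of other genes, whose median is near 0 on both axes.

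The 10 lower genes included epiblast and neural genes, while posterior genes as a list were not lower. Klf2, a factor of naive pluripotency, stood at 7.63 against 19.2 CPM (-1.28, -2.21 to -0.58) and at 5.63 against 14.2 CPM (-1.31, -1.97 to -0.76). Sox3, a gene of epiblast and neural progenitors, stood at 19.1 against 37.0 CPM (-0.94, -1.48 to -0.47) and at 16.9 against 26.1 CPM (-0.62, -0.98 to -0.29). Gbx2, which opposes Otx2 at the midbrain and hindbrain border, had -1.37 and -0.76. Nkx1-2, a gene of the caudal epiblast, had -0.91 and -0.79. Apela, which encodes a peptide ligand of the apelin receptor, had -1.23 and -0.90.

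The other lower genes were Pcsk2, a peptide convertase (-0.86 and -0.78), Dusp4 (-0.71 and -1.05), Ebf1, a transcription factor (-1.21 and -0.69), Ptn, a secreted growth factor (-0.81 and -0.63), and Id2, an inhibitor of basic helix-loop-helix factors (-0.60 and -0.96). Klf2 rested on 14 and 25 UMIs in members and Gbx2 on 10 and 36, so their ratios had wide intervals. Foxb1, a forkhead gene of epiblast and neural tissue, missed the threshold in 1 library (-0.72 and -0.53).

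Pluripotency genes were not lower as a group. Pou5f1, which encodes Oct4, stood at 734 against 712 CPM (0.04, -0.04 to 0.12) and at 706 against 708 CPM (0.00, -0.06 to 0.05). Nanog, which primed streak cells keep, had 0.32 (0.14 to 0.48) and 0.22 (0.10 to 0.33), and Sox2 had -0.52 and -0.51. Of 5 measured naive genes only Klf2 was lower in both libraries. Of 17 measured primed epiblast genes Otx2 was higher and Sox3 lower, with medians of 0.04 and 0.02.

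The summed level of early neural genes was lower in members, 130 CPM (114 to 148) against 194 CPM in the WT-labelled library and 115 CPM (105 to 126) against 136 CPM in the other. Of 3 measured, Gbx2 alone was lower in both libraries, and the list's medians were -0.72 and -0.53. Mitosis genes summed to 4163 against 3773 CPM and 4112 against 3720 CPM. None of the 24 was past the 1.5-fold limit, but 20 had a positive ratio in both libraries, against 2276 of the 7608 genes. DNA replication genes went the other way, with 2746 against 2879 CPM and 2580 against 2740 CPM, and 12 of 24 were negative in both libraries, against 1940 of all. None of 35 measured cilium genes, which the series is about by its title, was higher or lower in members of both libraries.

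The remaining lists held few measured genes. Of 8 measured streak and nascent mesoderm genes 3 were higher and 1 lower (medians 0.53 and 0.42), and of 6 node and prechordal genes 2 were higher (0.57 and 0.38). Of 6 measured definitive endoderm genes 1, Foxa2, was higher, with medians of 0.15 and -0.02. Of 7 posterior axial genes 2 were higher and 1 lower. In members the posterior list summed to 439 against 276 CPM in the WT-labelled library and to 502 against 314 CPM in the other. Fgf8 alone stood at 251 against 118 CPM and at 309 against 159 CPM, and T had ratios of 0.64 and 0.68. Nkx1-2 went the other way, with -0.91 and -0.79. Lists could share genes, and how far single genes made up these sums was not tested. Of 10 BMP pathway genes Id2 was lower, and none of 2 extraembryonic and 18 cell stress genes was past the limit in both libraries.

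Genes under the CPM minimum were described by the number of members with a UMI. The mesoderm genes Tbx6, Pdgfra and Hand1 were seen in 2, 2 and 2 members of the WT-labelled library and in 3, 0 and 5 of the other, and Msgn1 in none. In the WT-labelled library Tbx6, Pdgfra and Hand1 were each in 1.55% of members, against 0.283%, 0.661% and 0.472% of comparison cells. The neural genes Sox1, Pax6 and Hes5 were seen in 1, 0 and 1 members and in 2, 5 and 3. Comparison cells of the WT-labelled library had them in 1.54%, 1.23% and 1.04%, against 0.775%, 0% and 0.775% of its members. Zfp42, the naive gene, was seen in 21 members (16.3%) and 56 members (14.7%), while Esrrb and Dppa3 were seen in 1 and 2 and in 0 and 6. In comparison cells of the WT-labelled library Zfp42 was seen in 15.0%. Cdx2, a posterior homeobox gene, was seen in 15 members (11.6%) and 26 members (6.81%), against 9.85% and 5.28% of comparison cells. Otx2 without Cdx2 was seen in 61 members (47.3%) and 211 members (55.2%), against 27.9% and 35.3% of comparison cells. Cdx2 without Otx2 was seen in 9 (6.98%) and 9 (2.36%), against 6.67% and 3.45%. Otx2 was thus the more frequent in members and in comparison cells alike.

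Members also held more Eomes than comparison cells, 263 CPM (240 to 287) against 178 and 348 CPM (331 to 366) against 263. When comparison cells were weighted to the Eomes UMI counts of the members, 9 of the 15 higher genes and 6 of the 10 lower genes kept their place. The weights took counts of 5 or more as a single class, so Eomes levels were not matched within it. Before weighting, cells with 8 or more Eomes UMIs made up 11.6% and 10.7% of members, against 1.57% and 2.72% of comparison cells. Foxa2 (1.74 and 2.26), Mixl1 (1.80 and 1.53), Fgf8 (0.87 and 0.79), Adamts9, Pmepa1, Tdgf1, Lefty1 and Lefty2 were among the 9 kept. T dropped to 0.45 and 0.47 and Epha2 to 0.48 and 0.46, and Otx2 (0.68 and 0.58), Cdh11 (0.63 and 0.44), Hmga2 (0.51 and 0.63) and Pcdh8 (0.62 and 0.65) no longer met the limit with their interval in both libraries. Of the lower genes Gbx2 (-1.20 and -0.62), Id2 (-0.40 and -0.84), Ptn (-0.63 and -0.44) and Sox3 (-0.83 and -0.43) no longer did.

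Some cells had low expression over a whole chromosome. Low chromosome 11 expression was seen in 12 of 129 members (9.30%) against 18.2% of comparison cells in the WT-labelled library, and in 7.09% against 6.35% in the other. Low chromosome 6 expression was seen in 19.4% against 21.1% and in 22.6% against 17.2%. Without all cells low on either chromosome, 14 of the 15 higher genes and 5 of the 10 lower genes kept their place, and Dusp4, Gbx2, Id2, Ptn and Sox3 were lost.

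The number of Gsc UMIs divided the Eomes cells further. In the DM-labelled library Foxa2 stood at 5.89 CPM in cells with no Gsc UMI, 13.9 with 1, 27.7 with 2 and 64.7 (50.6 to 81.5) with 3 or more. In the WT-labelled library the same cells had 2.64, 4.70, 12.0 and 17.7 CPM (6.49 to 38.5). Foxa2 thus had a higher value at each step in both libraries. In the WT-labelled library the last step rested on 6 UMIs in 21 cells, and its interval holds the 12.0 CPM of the step before. Eomes rose over the same steps too, from 178 to 301 CPM in the WT-labelled library and from 263 to 379 CPM in the other.

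Mixl1 stood at 16.9, 30.9, 58.3 and 80.0 CPM over the same steps in the DM-labelled library, and at 15.1, 41.0, 76.9 and 47.2 CPM (27.0 to 76.6) in the other, where the last step held only 21 cells. Fgf8 went from 118 to 211, 242 and 292 CPM in the WT-labelled library and from 159 to 260, 286 and 375 CPM in the DM-labelled library. Sox3 went down, from 37.0 to 25.2, 20.7 and 11.8 CPM and from 26.1 to 18.0, 18.9 and 10.8 CPM. Cells with a single Gsc UMI therefore lay between comparison cells and members for Foxa2, Mixl1 and Fgf8 in both libraries.

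**Figure D4:**
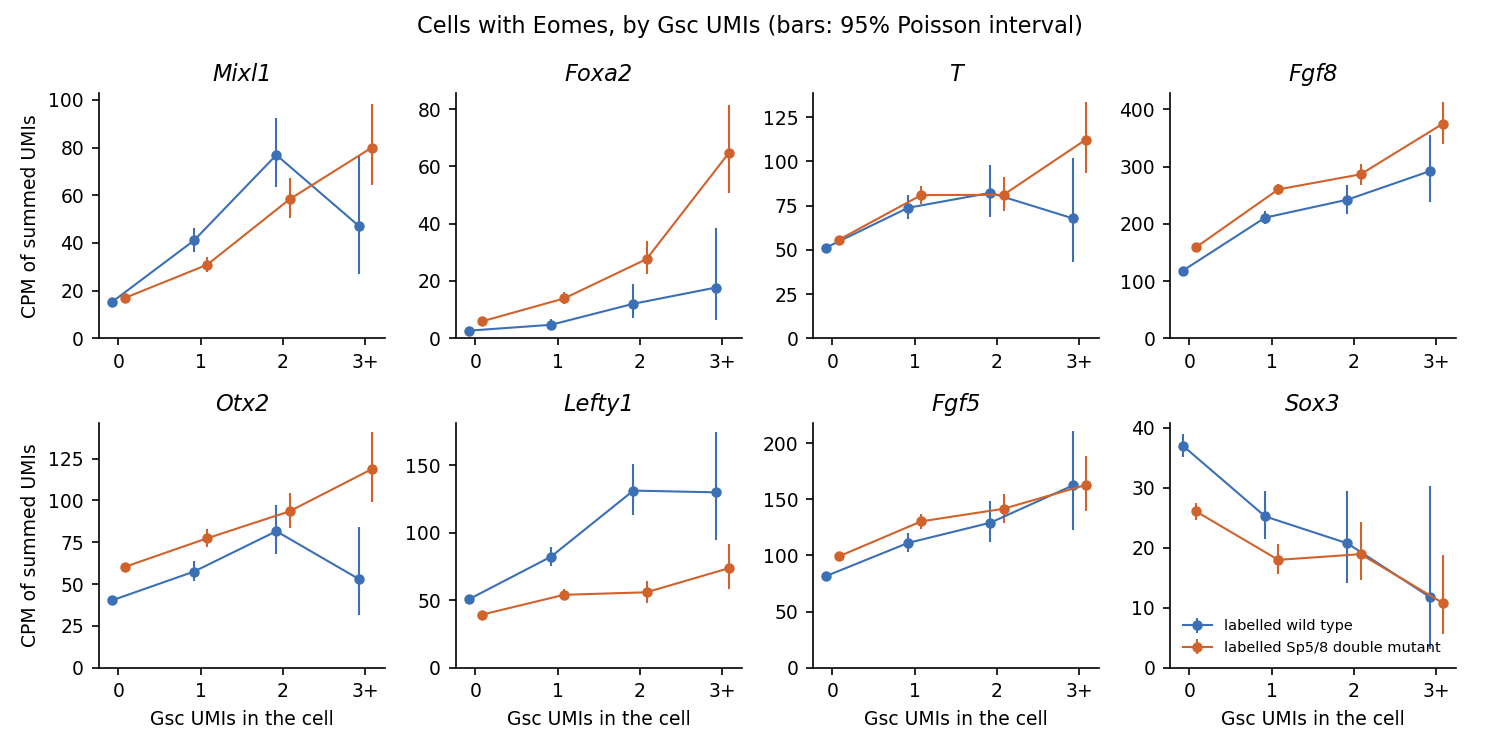
CPM of summed UMIs for 8 genes in cells with Eomes, grouped by Gsc UMIs (0, 1, 2, and 3 or more), in the WT-labelled library (blue) and the DM-labelled library (orange), with bars for the 95% Poisson interval. Foxa2, Fgf8 and Fgf5 climb at each step in both libraries, Sox3 ends at its lowest level, and the blue points at 3 or more rest on 21 cells.

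Members of the libraries were then compared with each other. Of 7585 genes with a mean of at least 10 CPM in members, 85 (1.12%) were higher in the DM-labelled library and 121 (1.6%) lower, by at least 1.5-fold with the counting interval on 1 side of 0. Comparison cells, with far larger sums, gave 10 higher and 12 lower, and with cells of 1 Gsc UMI added to the members the counts were 17 and 26. Of the 85, 61 had the same sign in comparison cells and 6 were past the same limit there, and of the 121 these numbers were 106 and 5. The share of all measured genes with the same sign was not counted, so these sign counts are not read as particular to the genes. With 1 library per genotype, the genotype cannot be told apart from the culture and the library.

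The genes that differed in members and in comparison cells alike were Sp5, Sp8, Foxa2, Adamts9, Flt1 and Snrpn on the higher side and Grb10, Cdkn1c, Phlda2, Rpa3 and Mycn on the lower side. Foxa2 had a log2 ratio of 1.47 (0.87 to 2.18) in members and 1.15 in comparison cells. Snrpn, an imprinted gene, had 0.69 and 0.68, and Grb10, an imprinted growth inhibitor, had -3.07 (-3.66 to -2.54) and -2.70. Sp5 had 2.10 and 2.03. For these genes the libraries differed among Eomes cells without Gsc too.

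Lefty1 was lower in members of the DM-labelled library, with 60.4 against 131 CPM (-1.12, -1.37 to -0.86), and in comparison cells the ratio was -0.37. Nodal had -0.81 in members and -0.13 in comparison cells. Among members 45.0% had a Lefty1 UMI in the WT-labelled library and 26.2% in the other, and for Nodal 45.7% and 24.1%. Tdgf1, by contrast, had -0.22 (-0.49 to 0.06) and Lefty2 -0.04. Whether members and comparison cells differed in these ratios was not tested.

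Pak1, a kinase of the cytoskeleton, had 1.27 (0.67 to 1.96) in members and 0.01 in comparison cells, but 0.31 when cells with a single Gsc UMI were added to the members. Dtx1, a Notch regulator, changed likewise from 1.40 to 0.51, Thap2 from 1.34 to 0.41 and Gnasas1, an antisense transcript of the imprinted Gnas locus, from 1.44 to 0.25. Pcyt2 (1.02) and Smyd2 (0.99) had 0.44 and 0.46 with those cells added. On the lower side stood Efna3, an ephrin ligand (-1.53), Pdlim3 (-1.21), Cdkn1c (-1.38), Tmem128 (-0.90) and Rpa3, a replication protein (-0.87). Pdlim3 and Tmem128 turned sign in cells thinned to 2500 UMIs, to 0.02 and 0.88.

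**Figure D5:**
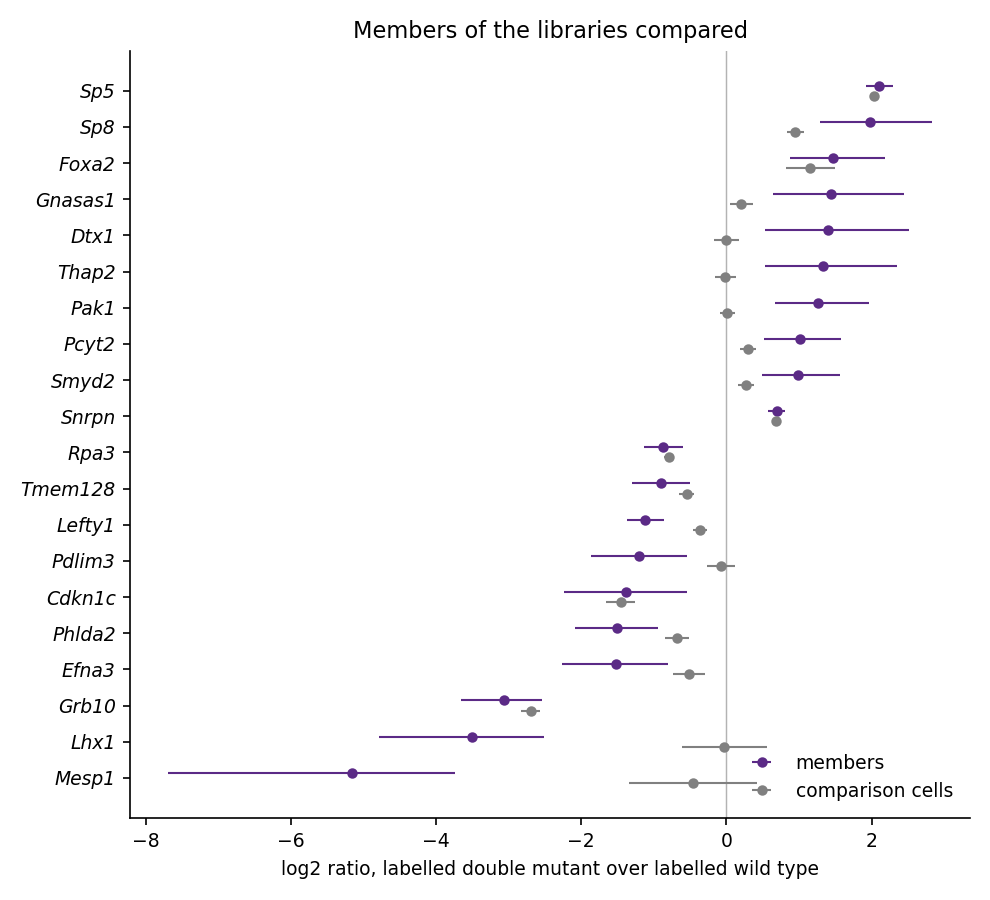
Log2 ratio of the DM-labelled library over the WT-labelled library for the 20 genes named by rank, in members (purple) and in comparison cells (grey), with 95% counting intervals. Sp5, Foxa2, Snrpn, Rpa3, Cdkn1c and Grb10 have like values in both kinds of cells, while Mesp1 and Lhx1 are far below 0 in members only.

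Mesp1 and Lhx1 had the lowest ratios, and few cells carried them. Mesp1, which marks nascent cardiac and anterior mesoderm, had 51 UMIs in 129 members of the WT-labelled library and 3 in 382 members of the other (-5.15, -7.69 to -3.73). The 51 UMIs lay in 4 cells with 22, 17, 11 and 1. Lhx1, a gene of axial and anterior mesendoderm, had 44 UMIs in 10 cells against 9 UMIs in 8 cells (-3.50), of which most lay in 3 cells with 15, 13 and 9. Cells singled out here were chosen after their values were seen.

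Of these, the members with 22 and 17 Mesp1 UMIs also had 9 and 15 Lhx1 UMIs, 4 and 10 Mixl1 UMIs, 9 and 5 Dkk1 UMIs and 9 and 19 UMIs of Fn1, which encodes fibronectin. The member with 13 Lhx1 UMIs had no Mesp1 UMI, 10 Mixl1 UMIs and 5 of Gata6. All 4 members with at least 3 UMIs of Mesp1 or Lhx1 had no UMI of Foxa2, Sox2, Lefty1, Lefty2 or Nodal. They had 4 to 13 UMIs of Pou5f1. In the whole WT-labelled library 6 cells had at least 3 Mesp1 UMIs, all with Eomes, 3 of them members, whereas in the DM-labelled library no kept cell did.

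Without the cells that held a Mesp1 UMI, the ratio between libraries was -2.35 for Lhx1, and 12 of the 15 higher genes and 9 of the 10 lower genes of members kept their place. Cdh11 then had 0.49 in the WT-labelled library, Hmga2 0.37 and T 0.58, each under the 1.5-fold limit, and Id2 was lost from the lower genes with -0.56. Foxa2 and Mixl1 were among the 12 that stayed.

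Counting strand is not given in the sources used here. Reads of Eomes, Otx2, Adamts9, Pcdh8, Gbx2, Nkx1-2, Pcsk2, Ebf1, Efna3, Smyd2, Cdkn1c, Snrpn and Gnasas1, which overlap an annotated gene on the other strand, could therefore include those of the partner.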

How the data were processed

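Single-cell RNA was measured in 1 pooled gastruloid library per genotype. The deposited matrices hold raw counts of UMIs per gene and barcode, not normalized by the authors. The submitters' processing notes name STARsolo, STAR 2.7.9a, Seurat 5.1.0 and mm10, and the labels' protocols name Cell Ranger 8.0.1; which of them made the matrices is not given in the sources used here, and neither is the handling of doublets or free RNA before deposit. The matrices list 6794880 barcodes per library, nearly all empty; 8772 and 10613 had at least 2500 UMIs, and 1 barcode fell to the gene minimum and 64 and 26 to the mitochondrial limit. Kept cells held 97157331 and 97644169 UMIs.

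UMIs were summed over members and over comparison cells, scaled to CPM, and compared as log2 ratios with a pseudocount of 0.5 counts and the exact conditional interval of 2 Poisson sums (Python 3.11.15, scipy 1.17.1). Shares have exact Clopper-Pearson intervals, and a count of 0 is given the limit of 3 counts. Ratios and intervals were run on simulated Poisson sums, the model that the intervals assume. Such sums lack the uneven spread of UMIs over cells, so they do not check the intervals for these data. No p-value was computed, since each genotype has 1 library and the members were chosen by the same measurements. Cells were thinned without replacement, and doublet scores (scikit-learn 1.9.0, 50 neighbours) marked 0.8% of cells per 1000 cells. A chromosome counted as low where a cell's share of UMIs on it, in cells with at least 4000 UMIs, was at most 0.8 times the median over both libraries. Alternatives changed the Gsc threshold, depth, filters, weights, CPM minimum, fold and scaling (TMM of edgeR 4.0.16).

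The members and the 17 gene lists were chosen with earlier results of these data known. Named genes are list genes, Sp5 and Sp8, and, after leaving out mitochondrial, ribosomal protein and clone-named genes, the 10 highest and 10 lowest per comparison by the ratio nearer 0 of the 2 libraries, or between libraries by the interval bound nearer 0. Hmga2, Flt1 and Mycn were named after their values were seen, to complete small counts. Some genes are not reported here.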

Additional observations from a re-analysis of the deposited data

How the results depend on the processing

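Members were 6.90% and 13.9% of kept cells in the WT-labelled and DM-labelled libraries with 1 Gsc UMI as the limit, 0.241% and 0.897% with 3, and 0.0115% and 0.217% after thinning to 2500 UMIs, so the share rests on the rule and the depth, while its order between libraries was the same in these settings. The 15 higher and 10 lower genes became 4 and 3 with 1 Gsc UMI as the limit, 9 and 6 with Eomes-weighted comparison cells, 7 and 0 at a minimum of 50 CPM and 3 and 1 at 2-fold. The lower genes became 5 after thinning, 5 without cells low on chromosome 6 or 11, and 17 with no CPM minimum. Between libraries, the 85 higher and 121 lower genes became 17 and 26 with 1 Gsc UMI as the limit, 4 and 9 at 50 CPM, 162 and 255 with no minimum, and 13 and 18 at 2-fold. The 85 became 147 with 3 Gsc UMIs as the limit and 165 with members of the WT-labelled library weighted to the depth of the other. The genes changed too: 8 of the 85 were shared with 1 Gsc UMI as the limit, 17 with 3, 51 with depth weights and 15 after thinning, and 14, 27, 62 and 24 of the 121. A higher CPM minimum and a 2-fold limit leave fewer genes by construction, and for the other settings the cause was not tested. With 3 Gsc UMIs as the limit (21 cells of the WT-labelled library), Id2 turned to 0.31 and Lefty2 to -0.92 in that library. After thinning, Id2 turned to 0.044 and Pcdh8 to -0.0041 there, and between libraries Pdlim3 turned to 0.019 and Tmem128 to 0.88. Of all values of single genes under these settings, 710 stayed within the counting interval of the reported value, 84 moved outside it and 6 turned sign. Removal of cells with Mesp1 and of cells low on chromosome 6 or 11, and of the single richest cell, was chosen after seeing the data. No paired analysis was possible because each genotype has 1 library.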
